A study of Mus musculus with 6 samples.

Results

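The circadian clock genes examined here were 10 genes listed by name: Arntl and Clock, Per1, Per2 and Per3, Cry1 and Cry2, Nr1d1 and Nr1d2, and Dbp. All 10 were among the 49315 genes of the count table, and all 10 were among the 16956 genes with enough counts to be tested. Messenger RNA was sequenced from mouse bone marrow after HFSC diet feeding and hindlimb ischemia, a block of blood flow to a leg, which both groups received. The WT group held 3 libraries (replicates 1, 3 and 4) from animals of strain miR-181a2b2flox/flox (flox), in which the locus of the microRNAs miR-181a-2 and miR-181b-2 is floxed. The KO group held 3 libraries (replicates 2, 3 and 4) from miR-181a2b2-/- (KO) animals, which lack that locus. Age, sex, the Cre line used, the time after surgery and the time of day at collection are details not given in the sources used here. Nor are the libraries tied to individual animals by their labels, and p-values therefore reflect the spread among these samples alone, which may be technical.

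The circadian clock is a feedback loop of transcription that runs with a daily period in most cells. ARNTL (also called BMAL1) and CLOCK form a pair that binds E-box sequences and activates the Per, Cry, Nr1d and Dbp genes, the PER and CRY proteins then repress that pair, and the NR1D receptors repress Arntl through a response element shared with the ROR receptors. Because of this wiring, in tissues with a strong clock the transcripts of Nr1d1, Dbp and Per3 peak at about the opposite time of day to that of Arntl, while Cry1 peaks later than Per2, so the ratios of these transcripts within a sample follow the phase of the clock. In bone marrow the clock is known for the daily release of blood-forming cells and for the ageing of neutrophils.

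The deleted microRNAs can pair with messenger RNAs through their seed, bases 2 to 8, and the seeds are therefore shown first. Both mature strands below come from RefSeq (GRCm38.p6, chromosome 2, plus strand, 38852741 to 38852763 for miR-181a-5p and 38853845 to 38853868 for miR-181b-5p), with the seed in capitals. Both share the same seed, ACAUUCA.
mmu-miR-181a-5p: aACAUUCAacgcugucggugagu
mmu-miR-181b-5p: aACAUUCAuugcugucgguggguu

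Of the 10 clock genes, 6 had a match to this seed in the 3' UTR of their principal GENCODE M21 transcript, counting the 7 bases TGAATGT, these with a following A (TGAATGTA), or GAATGTA. The matching share over the 13705 tested genes with such a 3' UTR was 21.6%. The 3' UTRs of the 6 genes had a median of 2200 bases against 1002 bases over all of them, and a longer sequence holds more matches of any kind. That of Cry1 was shorter than either median, at 612 bases. The 6 were Per2, Per3, Cry1, Cry2, Clock and Nr1d2, whereas Per1, Arntl, Nr1d1 and Dbp had none. The matches of Cry1 and Nr1d2 are printed because Cry1 had the smallest p of the 10 genes and Nr1d2 alone had the longer match. Capitals mark the match. The Cry1 site lies on the minus strand of chromosome 10 (GRCm38, 85132151 to 85132157), 155 bases after the stop codon. The sites of Nr1d2 lie on the minus strand of chromosome 14, at 18206433 to 18206439 and at 18204057 to 18204064, the latter near the end of the transcript.
Cry1 site: taactttttaaTGAATGTcatataggaca
Nr1d2 upstream site: tataatcacacTGAATGTtagactttttc
Nr1d2 downstream site: ataaagtttgcTGAATGTAtga

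The RefSeq promoter table (GRCm38.p6, 250 bases before to 50 after a start) held 9 of the 10 genes, all but Per2. An E-box (CACGTG, either strand) was found for Per1 and Cry1 among the 9, against 7.15% of all 32851 promoters. The variant CACGTT, which reads AACGTG on the other strand and shares 5 letters with the E-box, was found for Cry1, Cry2 and Nr1d1, against 4.68% of promoters. A D-box (TTANGTAA), the element that DBP binds, was found for Per3 alone, against 2.32%. TAGGTCA, the core of the element bound by ROR and NR1D receptors, was found for Arntl alone, downstream of a start, against 2.61%. A gene was counted if any of its promoters held the motif, whereas the percentages are over single promoters, so the 2 are not strictly alike. These matches are letters in a window and show nothing about binding in these cells. The windows of Per1, Cry1 and Per3 are printed to show these elements where they recur in the loop, with the motifs in capitals. Per1 is read on the plus strand of chromosome 11 (69098759 to 69098812), Cry1 on the minus strand of chromosome 10 (85185085 to 85185157) and Per3 on the minus strand of chromosome 4 (151044792 to 151044894).
Per1 promoter: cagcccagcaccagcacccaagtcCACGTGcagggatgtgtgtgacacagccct
Cry1 promoter: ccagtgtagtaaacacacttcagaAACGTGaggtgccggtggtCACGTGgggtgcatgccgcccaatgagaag
Per3 promoter: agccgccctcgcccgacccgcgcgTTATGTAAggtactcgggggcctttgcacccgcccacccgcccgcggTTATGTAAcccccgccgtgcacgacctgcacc

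Library totals ran from 33861440 to 40359093 counts. Mir181a-2 and Mir181b-2 had 0 counts in all 6 libraries, and because poly(A) selection captures such precursors poorly, this does not check the genotype labels. Markers of marrow cells were abundant, the 12 neutrophil markers together lying between 44372 and 80097 CPM (counts relative to each library's total after TMM scaling). The extraction label names white adipose tissue, and of the 8 adipocyte genes listed Plin1, Cidec and Lep had at most 7, 10 and 1 counts per library. Adipoq, the adiponectin gene, had 110 to 223 counts, Fabp4 had 539 to 1268, Lpl had 791 to 1692 and Retn and Cfd had 10 to 54. Fabp4 and Lpl are also made by macrophages. Along the first principal component (40.3% of variance) KO replicate 4 lay at 61.04, apart from the other KO libraries at 7.19 and 10.6, with WT between -28.5 and -23.2. Xist, the RNA that coats the inactive X chromosome of female cells, had between 140 and 225 counts in WT replicates 3 and 4 and KO replicate 2, and between 3 and 8 in the others.

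None of the 10 clock genes passed the test between KO and WT marrow. In edgeR's quasi-likelihood test with Benjamini-Hochberg adjustment over all genes and a threshold of 0.05, 0 of 10 were higher and 0 of 10 lower, where 2.46% of all tested genes (417) were called. At an unadjusted p under 0.05 there was 1 of 10, Cry1, against 23.9% of all genes. DESeq2 called 1 of 10, again Cry1, against 9.68% of all genes, and limma called 0, against 6.23% of all genes. The median log2 fold change (KO minus WT) of the 10 was -0.08, with 4 positive and 6 negative values between -0.36 and 0.34, beside a median of -0.01 over all tested genes. For Per2 and Per3, the genes with fold changes nearest to 0, the 95% limits of the KO to WT ratio were 0.821 to 1.22 and 0.833 to 1.18.

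**Figure D1:**
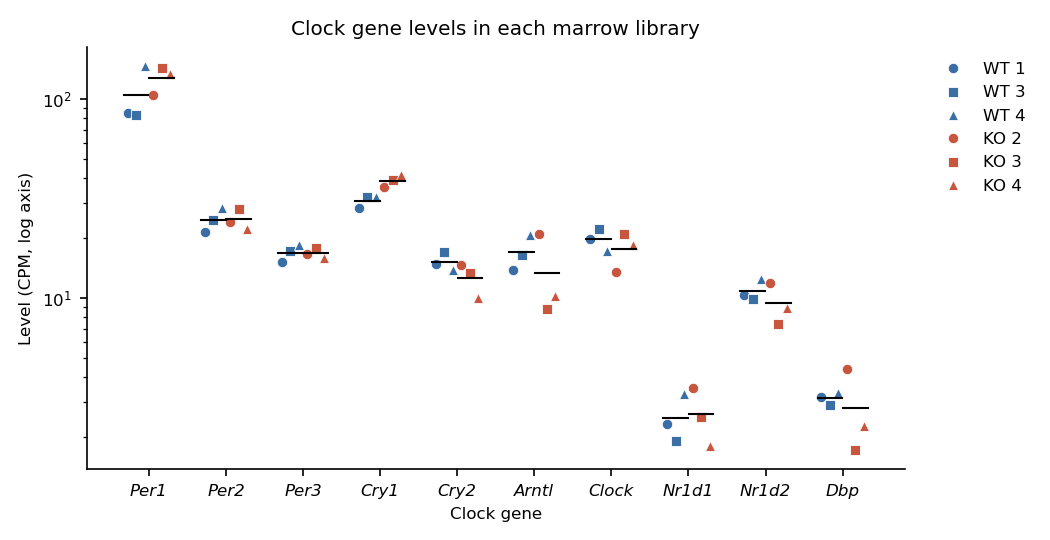
Level of each clock gene in CPM on a log axis, with 1 point per library (blue WT, red KO) and a bar at each group mean. The groups overlap for 9 of the 10 genes, the exception being Cry1. KO replicate 2 stands above the other KO libraries for 5 of the 10 (Cry2, Arntl, Nr1d1, Nr1d2 and Dbp), against 34.2% of all tested genes.

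**Figure D2:**
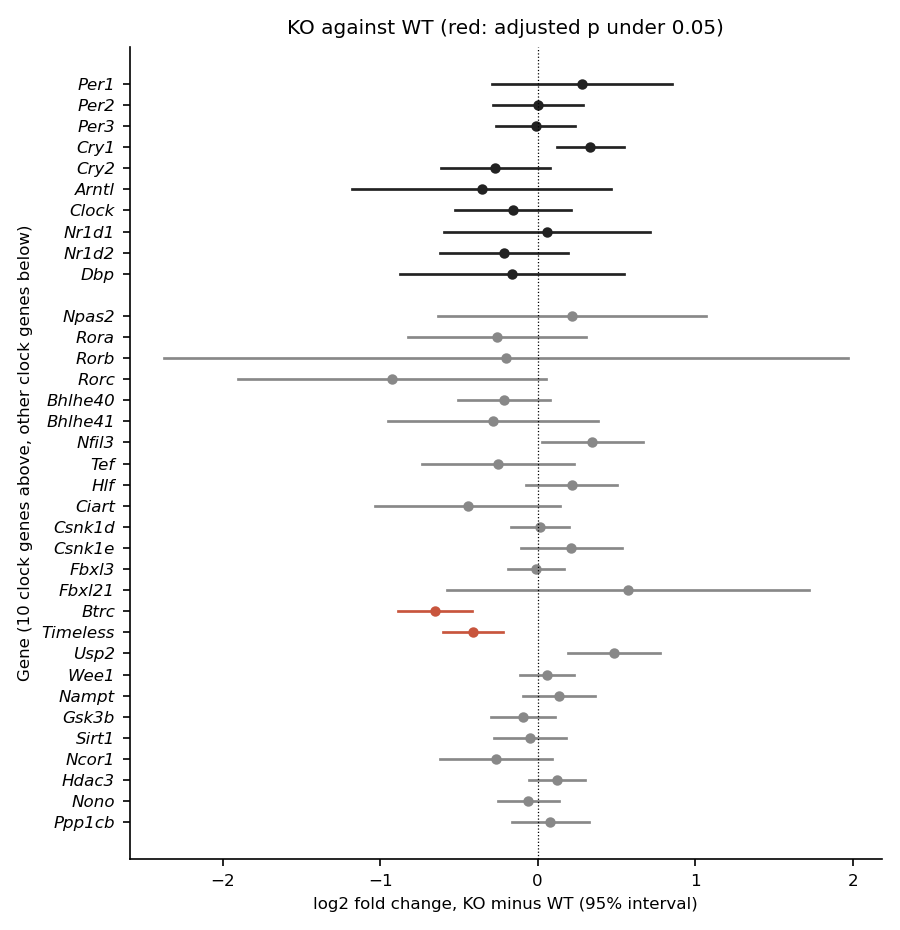
Log2 fold change, KO minus WT, with its 95% interval for the 10 clock genes (black) and 25 other clock genes (grey, or red where the adjusted p was under 0.05). Intervals of 9 of the 10 span 0, and the genes in red are Btrc and Timeless.

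The activators come first. Arntl (ENSMUSG00000055116, GRCm38 chromosome 7, 113207465 to 113314126) encodes the partner of CLOCK and is the core gene without which the loop stops. It lay at 13.9, 16.4 and 20.8 CPM in WT replicates 1, 3 and 4 and at 20.9, 8.86 and 10.2 CPM in KO replicates 2, 3 and 4. KO replicate 2 was thus the highest of the 6 libraries and KO replicates 3 and 4 the lowest. The log2 fold change of -0.36 ± 0.34 (SE, 3 against 3 libraries) lay within that spread, with a 95% interval from -1.18 to 0.47 (edgeR adjusted p = 0.574). Without KO replicate 2 it was -0.83 and passed the threshold (edgeR adjusted p = 0.046, where 3.27% of all tested genes were called), and without KO replicate 3 it was -0.12.

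Clock, which encodes the partner of ARNTL and a histone acetyltransferase, showed the reverse order of KO libraries. Its values were 19.8, 22.2 and 17.2 CPM in WT and 13.6, 21.1 and 18.5 CPM in KO, so that KO replicate 2, the highest library for Arntl, was the lowest for Clock. The groups overlapped, and the log2 fold change was -0.16 ± 0.16 (SE, edgeR adjusted p = 0.599).

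Among the repressors, Cry1 was the gene whose groups did not overlap. Cry1 (ENSMUSG00000020038, chromosome 10, 85131700 to 85185064), a light-insensitive cryptochrome that blocks the ARNTL and CLOCK pair, lay at 28.2, 32.1 and 32.3 CPM in WT and at 36.1, 39.2 and 41.5 CPM in KO. Every KO library was above every WT library, as was the case for 14.4% of all tested genes. The log2 fold change was 0.34 ± 0.10 (SE), a ratio of 1.26 with 95% limits of 1.09 and 1.46, and the adjusted p of 0.087 in edgeR missed the threshold. It was between 0.26 and 0.39 over 16 alternatives, and DESeq2 gave an adjusted p of 0.0404. The summed neutrophil markers also did not overlap, at 44372 to 55875 CPM in WT and 66100 to 80097 CPM in KO. Of the 12, 3 passed the threshold, all higher, against 2.46% of all tested genes, and 0 were at 0 in every library. The monocyte and macrophage sum was also higher without overlap (1238 to 1480 CPM in WT, 1502 to 1777 CPM in KO). So were the T and NK cell sum (84.9 to 107 and 110 to 128 CPM) and the glucocorticoid-induced sum (636 to 751 and 791 to 898 CPM). In these lists 4 of 8, 5 of 8 and 5 of 12 genes had negative log2 fold changes. The 14.4% above is a share of single genes, and no such share was counted for sums. The part of any of these lists in the Cry1 values was not tested. In such bulk samples more cells of a type and more RNA per cell cannot be told apart.

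Cry2, the paralog of Cry1, had values of the opposite sign that did not pass. It lay at 14.9, 17.1 and 13.8 CPM in WT and at 14.6, 13.4 and 10.03 CPM in KO, the lowest being KO replicate 4. The log2 fold change was -0.27 ± 0.15 (SE, edgeR adjusted p = 0.318), and -0.12 without KO replicate 4. The lowest WT library was below the highest KO library.

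The Period genes encode the partners that carry the cryptochromes into the nucleus. Per1 (ENSMUSG00000020893, chromosome 11, 69095217 to 69109960) lay at 84.5, 82.6 and 146 CPM in WT and at 105, 143 and 133 CPM in KO. WT replicate 4 was the highest of all 6 libraries and WT replicates 1 and 3 were the lowest, so the groups overlapped. The log2 fold change was 0.28 ± 0.24 (SE, edgeR adjusted p = 0.521), and 0.60 without WT replicate 4 (adjusted p = 0.113).

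Per2 and Per3 had group means that were nearly equal. Per2 lay at 21.6, 24.6 and 28.2 CPM in WT and at 24.2, 28.1 and 22.2 CPM in KO, with group means of 24.8 ± 3.32 and 24.8 ± 2.99 CPM (SD, n = 3 each). Per3 lay at 15.1, 17.2 and 18.5 CPM in WT and at 16.6, 17.9 and 15.9 CPM in KO. Its highest library was 1.22 times its lowest, the smallest such ratio of the 10 genes. The Per3 log2 fold change was -0.01 ± 0.11 (SE, edgeR adjusted p = 0.961).

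The receptors that repress Arntl did not pass. Nr1d2, encoding REV-ERB beta, lay at 10.4, 9.89 and 12.5 CPM in WT and at 11.9, 7.46 and 8.89 CPM in KO (log2 fold change -0.21 ± 0.18 SE, edgeR adjusted p = 0.508). Nr1d1, encoding REV-ERB alpha, lay at 2.34, 1.91 and 3.29 CPM in WT and at 3.53, 2.54 and 1.81 CPM in KO (0.06 ± 0.29 SE, adjusted p = 0.924). For both genes KO replicate 2 was the highest KO library. The Nr1d2 value was -0.41 without KO replicate 2, -0.062 without KO replicate 3 and -0.11 without WT replicate 4. Nr1d1 had between 68 and 138 counts per library, so that counting alone gives an error of 12.1% at the lowest. Exons of Nr1d1 overlap those of Thra on the opposite strand over 8.55% of their length, and Thra lay at 26.8 to 35.0 CPM. The sources used here do not give a strand setting, so reads from the overlap cannot be told apart.

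Dbp, the D-box activator whose level follows the clock with a wide daily swing in tissues such as liver, was at the low end in marrow. Dbp (ENSMUSG00000059824, chromosome 7, 45705088 to 45710203) lay at 3.21, 2.90 and 3.34 CPM in WT and at 4.42, 1.73 and 2.29 CPM in KO, from 62 to 149 counts per library. The 3 WT libraries lay between KO replicate 2 above and KO replicates 3 and 4 below. The log2 fold change was -0.16 ± 0.32 (SE, edgeR adjusted p = 0.79). It was -0.64 without KO replicate 2 (adjusted p = 0.143) and 0.10 without KO replicate 3. Dbp exons overlap those of Sphk2, at 45.5 to 53.8 CPM, on the opposite strand over 18% of their length, with the same limit as for Nr1d1.

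Levels were next set in order per kilobase of exon, since reads scale with transcript length. Per1 was the highest at 20.5 ± 5.09 CPM per kilobase (SD, n = 6 libraries), followed by Cry1 at 10.4 ± 1.49 and Per2 at 4.24 ± 0.48 CPM per kilobase. The library ranges of these 3 overlapped neither each other nor those of the genes below. Cry2 (2.21 ± 0.37), Arntl (2.02 ± 0.68), Nr1d2 (1.88 ± 0.34), Per3 (1.76 ± 0.13), Clock (1.37 ± 0.22), Dbp (0.997 ± 0.31) and Nr1d1 (0.836 ± 0.23 CPM per kilobase) followed, and each of these 7 overlapped the next in its library range. Exon lengths are unions over all annotated transcripts and understate the level of genes with long unused exons.

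The spread between libraries of a group was then described, since libraries taken at different clock times would differ most in genes with strong rhythms. Pooled within-group SDs of log2 CPM were highest for Arntl (0.513, a percentile of 86.9 among all tested genes), Dbp (0.494, percentile 85.8), Nr1d1 (0.438, percentile 82.4) and Per1 (0.367, percentile 76.8). They were lowest for Cry1 (0.106, percentile 20.9) and Per3 (0.119, percentile 26.3). Per2 was in the middle at 0.183 (percentile 48.7). Without KO replicate 2 the spread was 0.254 for Arntl and 0.186 for Dbp, and without WT replicate 4 it was 0.189 for Per1.

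Differences between antiphase transcripts within a library, which do not depend on the scaling of libraries, were used to ask whether the libraries were alike in clock phase. They are descriptions without a test, since 3 against 3 libraries cannot give an exact p below 0.1. The log2 difference Dbp minus Arntl was -2.11, -2.49 and -2.63 in WT and -2.24, -2.35 and -2.15 in KO. The groups overlapped, and the 6 values spanned 0.526, less than the 1.35 that Dbp and the 1.24 that Arntl spanned alone. Dbp and Arntl were thus high in the same library (KO replicate 2) and lowest in the same library (KO replicate 3).

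The other pairs differed more between libraries. Per3 minus Arntl was 0.12, 0.07 and -0.17 in WT and -0.34, 1.01 and 0.64 in KO, while Per3 itself had the narrowest range of the 10 genes. Nr1d1 minus Arntl was -2.56, -3.09 and -2.65 in WT and -2.56, -1.80 and -2.49 in KO, so that every KO value was above every WT value, but WT replicate 1 and KO replicate 2 were equal to the digits printed. The difference between the means (KO minus WT) was 0.49, and 0.24 without KO replicate 3. Per2 minus Cry1 was -0.39, -0.38 and -0.19 in WT and -0.57, -0.48 and -0.90 in KO. For this pair too the groups did not overlap, with a difference between the means of -0.33, which was -0.21 without KO replicate 4. Of the pair, Cry1 was the gene whose own groups did not overlap. How often other pairs of genes separate in this way was not counted. The KO libraries were spread more widely than the WT libraries for all of the pairs except Dbp minus Arntl (SD of 0.0986 in KO and 0.272 in WT).

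**Figure D3:**
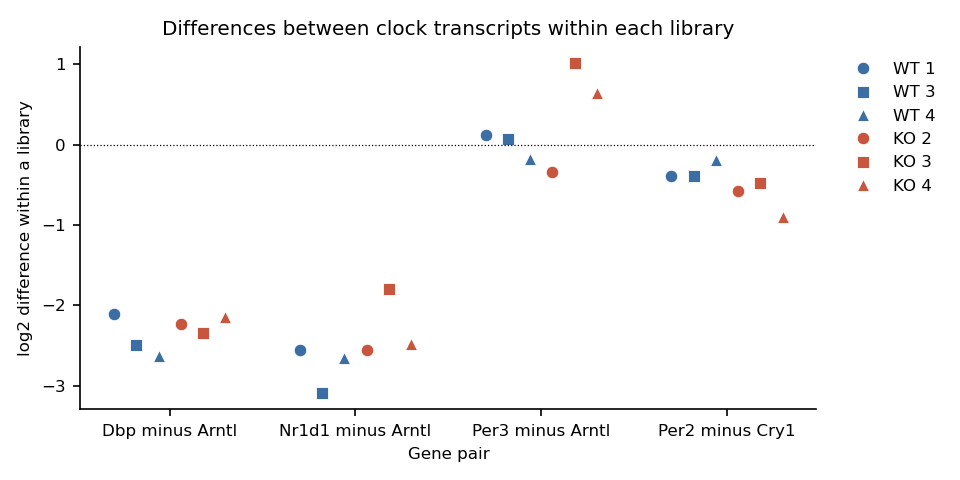
Log2 difference between the named clock transcripts within each library (1 point per library, blue WT, red KO). Dbp minus Arntl stays between -2.63 and -2.11 in all 6, whereas Per3 minus Arntl runs from -0.34 to 1.01, with KO replicates 3 and 4 above the others.

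KO replicate 2 also differed from KO replicates 3 and 4 in markers of several cell types, B cells among them. The 8 B cell markers summed to 946, 804 and 902 CPM in WT and to 1050, 544 and 591 CPM in KO, with Ighm as the largest part, and 0 of the 8 were at 0 in every library. KO replicate 2 was the highest KO library for 8 of 8 B cell markers and for 12 of 12 immediate early genes, against 34.2% of all tested genes. The same was found for 6 of 6 skeletal muscle, 7 of 8 T and NK cell, 5 of 6 megakaryocyte and 8 of 10 erythroid markers, but for 1 of 12 neutrophil markers. None of the 8 B cell markers passed the test between groups (edgeR). At an unadjusted p under 0.05 there were 2 of 8, both lower, near the share of 23.9% of all tested genes. The part of any of these cell types in the Arntl, Dbp and Nr1d2 values was not tested. KO replicate 2 was also the KO library with Xist, and among the WT libraries Arntl was higher in those with Xist (16.4 and 20.8 CPM) than in the one without (13.9 CPM). Dbp lay at 3.21 CPM in WT replicate 1, without Xist, and at 2.90 and 3.34 CPM in WT replicates 3 and 4, with it. Nr1d2 lay at 10.4 CPM in WT replicate 1 and at 9.89 and 12.5 CPM in WT replicates 3 and 4. These WT values rest on 111 to 140 counts for Dbp and 359 to 522 counts for Nr1d2. With Xist as a covariate the log2 fold change of Arntl was -0.18 (edgeR adjusted p = 0.597), against -0.36 without the covariate. Those of Dbp and Nr1d2 were -0.07 and -0.13 with it (edgeR adjusted p = 0.914 and 0.688), against -0.16 and -0.21. The cause of these shifts was not tested.

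**Figure D4:**
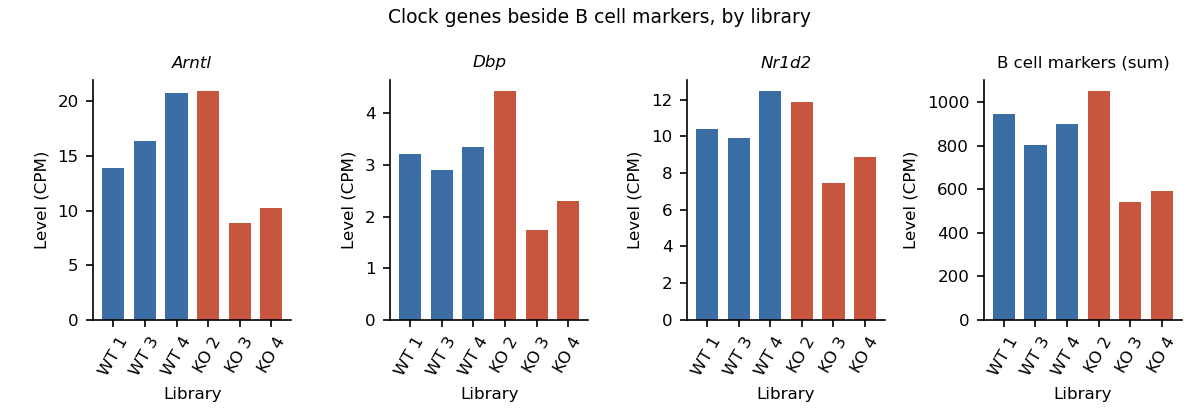
Level in CPM of Arntl, Dbp, Nr1d2 and the sum of 8 B cell markers in each library (bars from 0, blue WT, red KO). KO replicates 3 and 4 have the lowest bars in all of the panels, with B cell sums of 544 and 591 CPM, and KO replicate 2 resembles the WT libraries or lies above them.

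The genes most alike to Arntl and Dbp were found by the root mean square difference of log2 CPM, each gene centred on its mean over the 6 libraries, among 13873 named genes. The 5 nearest to Dbp were Ttll11 (0.065), Tubb2b (0.096), Kcng2, Degs2 and H2-Q6, and the 5 nearest to Arntl were Raver2 (0.112), Arl5c, Epb41l4b, Chchd10 and Fdx1l. Tubb2b encodes a tubulin and H2-Q6 a class I histocompatibility molecule, and none of these 10 genes is a component of the clock. Raver2 (0.335 to 0.835 CPM), Fdx1l (0.168 to 0.429 CPM) and Kcng2 (0.783 to 1.63 CPM) were low. Counting error, which is large at such levels, was not taken out of these differences. Dbp was at 0.187 from Arntl and ranked 31 in nearness, and Nr1d2 was at 0.246 and ranked 128. Cry1, Clock and Per1 were far from Arntl, at ranks 10641, 11669 and 12027. All of these values rest on the same 6 libraries and are descriptions.

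Per1 is also induced directly by stimuli and by glucocorticoids, apart from the clock, and its values are therefore set beside those lists. Of 12 immediate early genes 9 fell and 0 rose in KO (edgeR, adjusted p under 0.05), where 2.46% of all tested genes were called in either direction, with a median log2 fold change of -1.54. Per1, at 0.28, was not among those that fell. Of 12 glucocorticoid-induced genes 2 rose and 0 fell, Fkbp5 and Cebpd, against the same 2.46%, with a median of 0.28. The list was mixed, with 7 positive and 5 negative values. The negative ones were Tsc22d3 (-0.08), Sgk1 (-0.16), Zbtb16 (-0.05), Mt1 (-0.07) and Mt2 (-0.32). Klf9, a glucocorticoid-induced factor that is rhythmic in many tissues, had a value of 0.50 (edgeR adjusted p = 0.092). The part of either list in the Per1 values was not tested. The library with the highest Per1 had the highest sum of the glucocorticoid list in WT (replicate 4, 751 CPM against 636 and 667 CPM) but the lowest in KO (replicate 3, 791 CPM against 895 and 898 CPM).

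The rest of the pathway was given by 26 other clock genes listed by role, of which 25 were tested and Arntl2, at 4 to 10 counts per library, was not. Of the 25, 2 fell, 0 rose and 23 did not pass (edgeR), beside 2.46% of all genes called. DESeq2 and limma called 1 higher and 2 lower each, beside 9.68% and 6.23% of all genes, and the median log2 fold change was -0.05. Btrc, an F-box protein that marks PER proteins for destruction among many substrates, lay at 71.9, 64.7 and 66.5 CPM in WT and at 48.6, 42.8 and 37.6 CPM in KO. It fell by 0.65 ± 0.10 on the log2 scale (SE, adjusted p = 0.0236). Timeless, known in mammals mainly for its work at the replication fork, lay at 76.9, 80.1 and 77.9 CPM in WT and at 62.8, 59.9 and 53.8 CPM in KO, and fell by 0.41 ± 0.08 (SE, adjusted p = 0.0438). Btrc no longer passed when WT replicate 1 was left out (adjusted p = 0.086), or WT replicate 4 (0.0774), or KO replicate 4 (0.0784), or when trends with gene length and GC content were taken out (log2 fold change -0.42, 0.0912). Timeless no longer passed when WT replicate 1, 3 or 4 or KO replicate 4 was left out (adjusted p of 0.119, 0.0843, 0.145 and 0.167), with Xist as a covariate (0.0733) and with those trends taken out (0.0513). The log2 fold changes with 1 of these libraries left out were -0.61, -0.67 and -0.56 for Btrc and -0.42, -0.40, -0.42 and -0.35 for Timeless, in the order given.

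Of the genes that did not pass, Usp2, a rhythmic ubiquitin protease, had the next smallest p, at 7.52, 7.12 and 6.80 CPM in WT and 9.15, 10.1 and 10.7 CPM in KO (log2 fold change 0.48 ± 0.13 SE, edgeR adjusted p = 0.0789). It was the gene that DESeq2 and limma called higher (adjusted p = 0.0196 and 0.0407). Nfil3, the repressor that competes with DBP for D-boxes, was next, at 45.3, 46.0 and 48.3 CPM in WT and 45.1, 63.7 and 68.8 CPM in KO (0.35 ± 0.14 SE, adjusted p = 0.179). KO replicate 2 was its lowest library, whereas it was the highest for Dbp. Without KO replicate 2 the Nfil3 value was 0.51 and passed (edgeR adjusted p = 0.025). The DBP relatives differed in sign, Tef at -0.25 ± 0.21 and Hlf at 0.22 ± 0.13 (SE, adjusted p = 0.508 and 0.332), and Tef had its lowest KO values in replicates 3 and 4 (9.98 and 8.73 CPM, against 15.6 CPM in replicate 2), as did Arntl and Dbp.

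Finally, the fold changes were set beside the seed matches. Of the 6 clock genes with a match 2 had positive and 4 negative log2 fold changes, with a median of -0.08, and of the 4 without one 2 were positive and 2 negative, with a median of -0.05. Over all tested genes with a 3' UTR the medians were -0.04 for the 2963 with a match and 0.02 for the 10742 without. These sets also differed in 3' UTR length, with medians of 2228 and 767 bases, and the part of length was not tested. Cry1, with the match printed above, had the highest fold change of the 6, and Cry2, also with a match of 7 bases, the lowest at -0.27. Nr1d2, with the longer match, had a log2 fold change of -0.21.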

How the data were processed

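The deposited table holds raw read counts per Ensembl gene for 6 poly(A)-selected libraries, made by the authors on GRCm38. The tools listed are featureCounts (Subread 1.5.2), STAR 2.5.2b and Trimmomatic 0.36, per the submitters' processing notes. Their settings, the annotation release, strandedness and the handling of multi-mapping reads are details not given in the sources used here. Symbols, positions, exon lengths and 3' UTRs came from GENCODE M21 (GRCm38), which named 49056 of 49315 identifiers. The others held 0.0171% of counts. Counts were tested with edgeR 4.0.16 (R 4.3.3), by its two-sided robust quasi-likelihood test after TMM scaling and filterByExpr. Log2 CPM used a prior count of 0.5. All pairs of libraries differed beyond sampling noise (chi-square per gene of at least 29.9). Alternatives included DESeq2 1.42.0 and limma 3.58.1. The clock genes, the lists and the tests were chosen with earlier results of these data known. Named were the 10 clock genes, of the other clock genes those past the threshold and the 4 with the smallest p (Btrc, Timeless, Usp2 and Nfil3), the 5 genes nearest to Dbp and to Arntl, and genes set beside them. Tef, Hlf and Klf9 were added after their values were seen. WT and KO share replicate numbers 3 and 4. Deviations from the group means had a correlation over genes of 0.194 for number 3 and -0.122 for number 4, and nothing in the labels ties the numbers to animals, so they were not taken as pairs.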

Additional observations from a re-analysis of the deposited data

How the results depend on the processing

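Over all tested genes 417 were called. Leaving the low genes in gave 1492, DESeq2 1641, limma 1057 and Xist as a covariate 209. Leaving out 1 library gave 32 (KO replicate 4) to 920 (KO replicate 3), with 33, 199 and 37 without WT replicates 1, 3 and 4. Of the calls 38.1% were higher in KO, against 17.8% with library totals as the only scaling and 52.2% with DESeq2. Of the 10 clock genes 0 were called, but 1 by DESeq2 (Cry1) and 0 to 1 with 1 library left out (Arntl, without KO replicate 2). With the replicate number as a block, which here is only a shared number, 571 genes were called, 1 of them among the 10 (Arntl, -0.96, adjusted p = 0.00788), and Per2 was -0.076, Clock 0.013, Nr1d1 -0.23, Cry2 -0.41 and Nr1d2 -0.45. With the block Timeless no longer passed (adjusted p = 0.0522) and Nfil3 did (0.49, adjusted p = 0.0464). Of the other clock genes 2 were called, 1 with Xist as a covariate, 0 with the length and GC trends taken out, and 0 to 3 with 1 library left out (0 when WT replicate 1 or 4, or KO replicate 4, was the one). Small log2 fold changes turned sign. Per2 was -0.069 with totals only, -0.0055 with no filter, -0.015 with only genes averaging 1 or more on the log2 CPM scale and -0.077 with limma. Per3 was 0.027 with Xist and 0.16 without the length and GC trends, where Clock was 0.022. Nr1d1 was -0.0079 with totals only and -0.12 with limma. With 1 library left out, Per2 ran from -0.087 to 0.10, Per3 from -0.086 to 0.054, Clock from -0.29 to 0.0063, Nr1d1 from -0.21 to 0.30 and Dbp from -0.64 to 0.10. The cause of these shifts was not tested.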
